A study of Drosophila melanogaster with 2 samples.

Results

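The genes described here are 37 genes of the secretory pathway of Drosophila melanogaster, the regulators CrebA and Xbp1 among them, out of 13945 protein-coding genes annotated on the X and on 2L, 2R, 3L, 3R and 4. They were listed by name, with earlier results of these data known, and all 37 were found in the annotation. Chromatin immunoprecipitation with sequencing (ChIP-seq) had been done on whole larvae at the wandering stage of the third instar, with males and females pooled and the age given as unknown. The larvae came from the strain sage-GFP, a line with a transgenic insertion that stably expresses the factor Sage with GFP at its C-terminus, and the precipitation used an antibody against GFP. Biological replicates 3 and 4 gave 2 samples of 1 group, with no untagged or untreated group to set beside them, and the control library was not analysed here. Since chromatin of all tissues was mixed, a region occupied strongly in few cells and a region occupied weakly in many cells cannot be told apart.

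Proteins made for export enter the endoplasmic reticulum (ER) through the signal recognition particle (SRP), its receptor and the Sec61 translocon, fold there with the help of chaperones and leave in vesicles with a COPII coat. Proteins that belong to the ER and have escaped from it return in vesicles with a COPI coat. CrebA is a basic leucine zipper (bZIP) factor that raises the expression of many genes of this route in secretory tissues such as the larval salivary gland, and Xbp1 is the bZIP factor of the unfolded protein response. The tagged factor, Sage, belongs to the basic helix-loop-helix (bHLH) class, whose members bind the E-box, CANNTG, and is known for its role in the salivary gland.

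A gene was called bound when the summit of a peak lay within 1 kb of any of its transcription start sites (TSSs), for peaks of the list that passed the authors' irreproducible discovery rate (IDR) threshold. By that rule 8 of the 37 genes were bound. Sequences from the windows around the strongest summits of 7 of them are shown first, because the calls rest on these summits. Each comes from the 101 bp window centred on the summit in the RefSeq Release 6 (dm6) genome. It is read 5′ to 3′ on the strand of the gene, without annotated exons. The stretches of Sec23 and Sec13 therefore stop 1 base before the TSS and are not centred on the summit. That of Sec23 ends before its summit, which lies in the exon. Capitals mark CANNTG and the core ACGT, which bZIP sites hold.
CrebA (chr3L:15535215-15535315, plus strand): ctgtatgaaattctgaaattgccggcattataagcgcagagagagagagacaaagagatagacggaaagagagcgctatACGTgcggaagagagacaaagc
Srp72 (chr3R:20588578-20588678, plus strand): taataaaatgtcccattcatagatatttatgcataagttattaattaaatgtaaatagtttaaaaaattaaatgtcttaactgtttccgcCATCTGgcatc
Hsc70-3 (chrX:11806457-11806557, minus strand): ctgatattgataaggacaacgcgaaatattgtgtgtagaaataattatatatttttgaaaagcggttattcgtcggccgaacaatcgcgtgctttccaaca
Sec23 (chr3R:5649017-5649064, plus strand): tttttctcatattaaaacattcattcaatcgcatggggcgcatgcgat
Sec13 (chr3R:23356202-23356277, plus strand): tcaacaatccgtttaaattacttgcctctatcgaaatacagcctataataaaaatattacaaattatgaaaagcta
zetaCOP (chr3L:16673665-16673765, minus strand): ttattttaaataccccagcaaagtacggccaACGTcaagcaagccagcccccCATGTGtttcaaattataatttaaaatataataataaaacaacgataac
KdelR (chr2L:10426278-10426378, plus strand): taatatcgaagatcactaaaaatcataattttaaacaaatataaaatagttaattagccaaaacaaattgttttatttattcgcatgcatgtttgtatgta
The window of zetaCOP holds both marked motifs, with the E-box CATGTG 2 bp from the summit. The window of Srp72 holds the E-box CATCTG near its gene-side end, and that of CrebA holds ACGT behind a run of GA repeats. The printed parts of the windows of Hsc70-3, Sec23, Sec13 and KdelR hold neither motif. The part of the Sec23 window that is not printed holds ACGT, 32 bp from the summit.

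The authors' signal of a region is their peak caller's own value, and signals were compared only within a list. Ranks by it (1 is the strongest) were counted within each list, and ranks at the same gene were also set beside each other across lists. The pooled list held 30000 regions with a median signal of 39.0, replicate 3's list 29999 with a median of 21.6 and replicate 4's list 30000 with a median of 23.3. The IDR list held 3312 peaks, which were the 3312 strongest regions of the pooled list, with a median signal of 135.5 and a lowest signal of 95.7; 3292 of them lay on the arms and 20 on the mitochondrial genome. No list had a region within 1 kb of a TSS of sage itself. As peak lists hold no reads, the sequencing depth of the samples is unknown.

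The 8 bound genes were CrebA, Xbp1, Srp72, Hsc70-3, Sec23, Sec13, zetaCOP and KdelR. Each step held 1 or 2 of them, too few to compare the steps. KdelR, the only one of the last step, was not bound within 500 bp or when a summit counted for the nearest gene alone. They make 21.6% of the 37 genes, against 14.4% of all 13945 protein-coding genes by the same rule and 25.4% (16 of 63) of other genes of the route. By step, both regulators were bound, 1 of 10 genes of SRP and translocon, 1 of 4 ER chaperones, 2 of 8 genes of COPII and ER exit, 1 of 6 of COPI and 1 of 7 cargo receptors and Golgi proteins. The median of the strongest signal was 117.7 over the 8 bound genes, 139.8 over the 16 other bound genes of the route and 141.4 over all 2010 bound genes. Ranked by strongest signal among those 2010, the 8 genes stood between 418 and 1838.

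**Figure D1:**
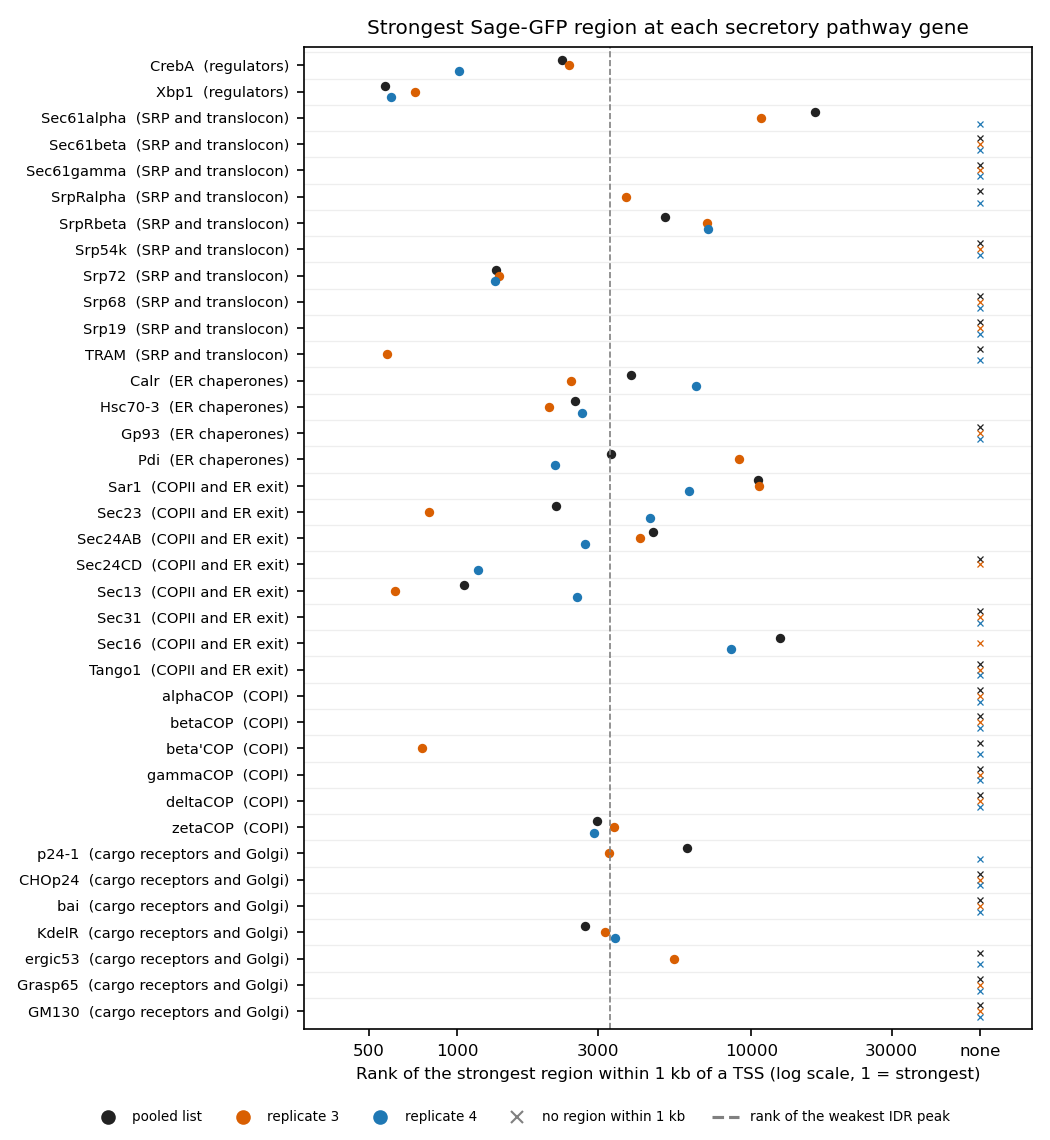
Rank (horizontal, log scale, 1 is the strongest) of the strongest region within 1 kb of a TSS at each of the 37 genes (rows, with their step), in the pooled list (black), replicate 3 (orange) and replicate 4 (blue). A cross at the right stands for no region within 1 kb, and the dashed line at rank 3312 is the weakest IDR peak. Xbp1 ranks between 568 and 715 in all 3 lists, while 16 genes carry crosses in all 3.

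Both regulators had a peak just upstream of their TSS. The Xbp1 peak (2R, 21143176 to 21143565, intergenic) lay 174 bp upstream and was the strongest of the 8, with a signal of 223.0 and rank 568 in the pooled list. In the replicates it had a signal of 90.2 at rank 715 in replicate 3 and of 133.1 at rank 593 in replicate 4, so it stood among the strongest regions of both. It ranked 418 among the 2010 bound genes.

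The CrebA peak (3L, 15535070 to 15535459, intergenic) lay 130 bp upstream, with a pooled signal of 116.2 at rank 2264. Its signal was 53.4 at rank 2404 in replicate 3 and 102.9 at rank 1014 in replicate 4, higher in the order of replicate 4 than in the other lists. No other protein-coding TSS lay within 1 kb of the summits of the 2 regulators. Farther out, CrebA had a stronger peak 1784 bp upstream, with no other protein-coding TSS within 1 kb (signal 190.3, rank 787; rank 698 in replicate 3 and 1485 in replicate 4). Xbp1 had a peak 1168 bp upstream (signal 124.1, rank 1978) that lay 9 bp from a TSS of CG9406, and one 346 bp past its 3′ end (signal 246.1, rank 465) that lay 107 bp from a TSS of Hmg-2. Past the 3′ end of CrebA, at 792 bp, a peak (signal 119.4, rank 2144) lay 107 bp from a TSS of AGO2.

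Of the genes that bring proteins to the ER membrane and through it, Srp72 was bound. Srp72, which with Srp68 forms an RNA-binding pair of the particle, had 2 IDR peaks. The stronger (3R, 20588433 to 20588822, intergenic) lay 83 bp upstream, with a pooled signal of 148.7 at rank 1352, 56.9 at rank 2076 in replicate 3 and 91.5 at rank 1339 in replicate 4. The second, 696 bp upstream in a non-coding part of an exon of Septin2, had a signal of 119.1 at rank 2158, with ranks 1385 and 3823 in replicates 3 and 4. The order of the 2 peaks was thus turned round in replicate 3, where the farther one was the stronger. The Septin2 TSS lay 272 bp from the first summit and 341 bp from the second, so the second was nearer to Septin2 than to Srp72.

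The remaining genes of this step, TRAM apart, had weaker regions or none. SrpRbeta, the membrane-anchored subunit of the SRP receptor, had a region 24 bp upstream at rank 5094 in the pooled list (signal 75.3), with ranks 7071 and 7118 in replicates 3 and 4. Sec61alpha, the channel subunit of the translocon, had a pooled region 893 bp downstream of a TSS at rank 16408 (signal 36.8), a region at rank 10747 in replicate 3 and none in replicate 4. SrpRalpha, the other subunit of the receptor, had regions in replicate 3 alone, the stronger at rank 3750 (signal 43.5). Sec61beta and Sec61gamma, the small translocon subunits, Srp54k, the GTPase that reads the signal peptide, Srp68, and Srp19, which takes part in assembling the particle, had no region within 1 kb in any list.

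TRAM, known from mammals as a protein next to the translocating chain, had a region in replicate 3 that was the strongest of any of the 37 genes in that list, 66 bp downstream of a TSS, with a signal of 99.3 at rank 578. No pooled region and no region of replicate 4 overlapped it. Such strong regions of 1 replicate were also found at beta'COP in replicate 3 (signal 88.2, rank 755, 252 bp upstream) and at Sec24CD in replicate 4 (signal 96.7, rank 1179, 146 bp upstream), and these were singled out after their values were seen. Of the strongest regions on the arms, 175 of 3310 in replicate 3 (5.29%) and 188 of 3297 in replicate 4 (5.70%) overlapped no pooled region, so such regions occurred throughout the lists. Among all protein-coding genes, 1.69% had a region of replicate 3's 3312 strongest and no pooled region within 1 kb, against 2 of the 37, and for replicate 4 the values were 1.43% and 1 of the 37.

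Hsc70-3, the fly BiP and main Hsp70 of the ER, was bound among the chaperones. Its peak (X, 11806312 to 11806701) lay in an intron of the gene, 154 bp upstream of the nearest of its 4 TSSs, with a pooled signal of 110.4 at rank 2514. Overlapping regions had a signal of 53.1 at rank 2438 in replicate 3 and of 55.5 at rank 3750 in replicate 4. Regions were many around this gene, with 3 in the pooled list, 6 in replicate 3 and 4 in replicate 4 within 1 kb of a TSS. The strongest of them in the replicates were not at the IDR summit. In replicate 3 it lay 347 bp upstream of its nearest TSS (rank 2041), and in replicate 4 490 bp upstream of its own (rank 2644). Each distance counts from the nearest of the 4 TSSs, which need not be the same TSS, so these distances do not give the spacing between the regions.

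Pdi, the protein disulfide isomerase, lay just outside the threshold, while the weakest bound gene of the 37, zetaCOP, was at rank 2976 with a signal of 101.5. The strongest Pdi region, 86 bp upstream, had a pooled signal of 95.4 at rank 3330, and the 3312th region, the weakest IDR peak, 95.7. In replicate 3 its region had a signal of 28.2 at rank 9070, and in replicate 4 one of 73.5 at rank 2154, among that replicate's strongest. Calr, the lectin chaperone calreticulin, was the reverse. Its strongest region lay 188 bp upstream in replicate 3 (rank 2426, signal 53.2) and in the pooled list (rank 3893, signal 87.3). In replicate 4 the strongest lay 831 bp upstream (rank 6500, signal 40.7), and another, 122 bp upstream, had rank 7109 (signal 38.6). Gp93, the fly GRP94, had no region in any list.

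In the COPII coat, the bound genes were Sec13 of the outer cage and Sec23 of the inner layer. The Sec13 peak (3R, 23356057 to 23356446, intergenic) lay 26 bp upstream, with a pooled signal of 165.7 at rank 1055, 96.4 at rank 613 in replicate 3 and 67.7 at rank 2555 in replicate 4. A TSS of ATPsynCF6 lay 188 bp from this summit. The Sec23 peak (3R, 5648872 to 5649261) lay 2 bp downstream of the TSS in a non-coding part of the first exon, with a pooled signal of 119.1 at rank 2157. It had rank 801 in replicate 3 (signal 86.3), but in replicate 4 the region at the same distance had a signal of 31.5 at rank 9653, and a stronger one, 290 bp upstream, 50.6 at rank 4506. Of the 8 bound genes, Sec23 was the one with the widest gap between the replicates, and Sec13 ranked higher in replicate 3 as well.

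Sec24AB and Sec24CD, which carry the cargo-binding sites of the inner coat, were not bound. Sec24AB had a pooled region 836 bp downstream at rank 4614 (signal 79.6), and its strongest region in replicate 4 lay 365 bp upstream at rank 2706 (signal 65.7). The single region at Sec24CD was the one in replicate 4 named above. Sar1, the GTPase that starts the coat, had a pooled region 402 bp upstream at rank 10514 (signal 49.1). The strongest region lay elsewhere in replicate 3, 567 bp downstream (rank 10572), and 400 bp upstream in replicate 4 (rank 6143). Sar1 also had an IDR peak in its own intron 1481 bp downstream of a TSS, outside the 1 kb window. That peak had a signal of 151.0 at rank 1317, with ranks 837 and 2559 in replicates 3 and 4. Sec16, the scaffold of ER exit sites, had a pooled region 8 bp upstream at rank 12487 (signal 44.0), while Sec31, the partner of Sec13, and Tango1, which helps load large cargo, had none in any list.

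Of the 6 coatomer genes of the COPI coat, zetaCOP was bound. Its peak (3L, 16673520 to 16673909, intergenic) lay 160 bp upstream, with a pooled signal of 101.5 at rank 2976, 45.4 at rank 3420 in replicate 3 and 63.2 at rank 2909 in replicate 4. It was the weakest of the 8 bound genes, ranking 1838 among 2010, and a TSS of CG13032 lay 249 bp from the summit. At beta'COP the strong region of replicate 3 had a second one beside it, 49 bp upstream (signal 54.8, rank 2287). alphaCOP, betaCOP, gammaCOP and deltaCOP had no region within 1 kb in any list, and the nearest IDR summit to betaCOP was 91006 bp away.

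KdelR, the receptor that returns escaped chaperones to the ER, was the bound gene of the last step. Its peak (2L, 10426133 to 10426522) lay 559 bp upstream in an intron of SmB, with a pooled signal of 106.1 at rank 2718, 47.1 at rank 3179 in replicate 3 and 56.9 at rank 3572 in replicate 4. In replicate 4 a region of nearly the same strength lay 59 bp upstream (signal 58.1, rank 3447). The IDR summit was 299 bp from a TSS of SmB, nearer than to KdelR. p24-1, a p24 cargo receptor, had a pooled region 64 bp upstream at rank 6014 (signal 68.8), a region at rank 3288 in replicate 3 (signal 46.3) and none in replicate 4. ergic53, a lectin that carries glycoproteins, had a region at rank 5441 in replicate 3 alone. The p24 proteins CHOp24 and bai and the Golgi proteins Grasp65 and GM130 had none.

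**Figure D2:**
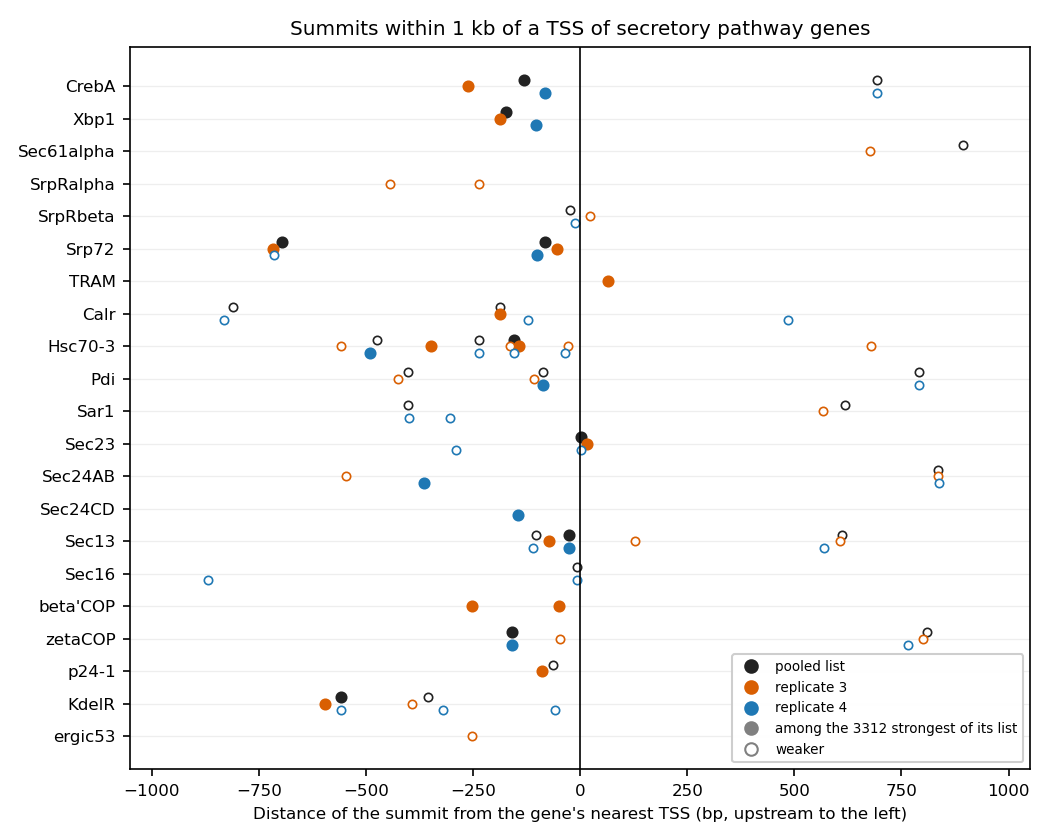
Distance of each summit from the nearest TSS of the gene (horizontal, bp, upstream to the left) for the 21 genes with a region within 1 kb in any list, in the pooled list (black), replicate 3 (orange) and replicate 4 (blue). Filled points are among the 3312 strongest regions of their list. Filled black points, which are the IDR peaks, lie upstream of the TSS or within 2 bp of it.

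The bound genes had their strongest summit close to the TSS. The median distance was 142 bp, against 193 bp over all bound genes, and the summit lay upstream of the TSS at 7 of 8 genes (87.5%), against 80.6% of all bound genes. Their own TSS was the nearest to the summit at 7 of 8 (87.5%, against 72.7%), KdelR being the other one. At 5 of 8 (62.5%, against 53.1%) another protein-coding gene also had a TSS within 1 kb of the summit: Srp72, Sec23, Sec13, zetaCOP and KdelR.

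The number of annotated TSSs moved with the calls. Of the 27 genes with 1 TSS, 4 were bound (14.8%, against 10.1% of all such genes), and of the 10 with 2 or more, 4 were bound, against 26.5% of all such genes. The mean number of TSSs was 1.41 over the 37 genes and 1.41 over all genes. The part of the TSS number in the calls was not tested.

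With weaker regions counted, the share of secretory pathway genes was close to that of all genes. When every pooled region counted, 16 of the 37 (43.2%) had one within 1 kb, against 43.5% of all genes. A region in both replicates, of any strength, was found at 13 of the 37 (35.1%, against 36.2%), and 16 (43.2%, against 40.8%) had none in any list. At the other end, 3 genes, Xbp1, Sec13 and Srp72, were bound by the 1656 strongest IDR peaks (8.11%, against 7.83%). The strongest peaks of those 3 had a deposited −log10 q-value of 2.11, the highest of the pooled list. Weaker peaks shared this value, such as that at ERp60 (rank 1743), so it is not particular to the 3 genes. The strongest peaks of the other 5 bound genes had values from 1.90 to 1.98.

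The replicates' own lists, taken to the same 3312 strongest regions, called partly different genes. Replicate 4's list called 9 genes (24.3%, against 14.3% of all genes): CrebA, Xbp1, Srp72, Hsc70-3, Sec13, zetaCOP, Pdi, Sec24AB and Sec24CD. Replicate 3's list called 11 (29.7%, against 16.1%): CrebA, Xbp1, Srp72, Hsc70-3, Sec13, Sec23, KdelR, Calr, TRAM, beta'COP and p24-1. Called in both were CrebA, Xbp1, Srp72, Hsc70-3 and Sec13, which are 5 of the 9 and 5 of the 11, and 13.5% of the 37 genes against 9.65% of all genes; this count was added after the values had been seen. At 4 of the 8 bound genes, CrebA, Xbp1, Srp72 and Sec13, the IDR peak itself overlapped one of the strongest regions of each replicate, against 61.0% of all bound genes.

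Changes of the calling rule moved single genes. With TSSs within 500 bp, 7 genes were bound (18.9%, against 12.0% of all genes), KdelR being lost. Within 2 kb, 10 were bound (27.0%, against 17.7%), Sar1 and SrpRbeta being added; the SrpRbeta peak (signal 275.9, rank 362) lay 1082 bp upstream and 17 bp from a TSS of CG6511. When any base of the peak could lie within 1 kb, 9 were bound (24.3%, against 15.1%), and with the outermost 5′ end alone 8 (21.6%, against 12.8%). When a summit counted for the nearest protein-coding gene alone, 7 were bound (18.9%, against 10.8%), again without KdelR. Counting summits anywhere in a gene or within 1 kb of it gave 11 of 37 (29.7%, against 19.3%), and the genes so added were Sar1, Pdi and Sec61alpha. The Pdi peak lay 103 bp past the 3′ end (signal 97.8) and 701 bp from a TSS of CG12316. The Sec61alpha peak lay 68 bp past the 3′ end (signal 106.1) and 139 bp from a TSS of CG9536. Their ranks in replicates 3 and 4 were 13777 and 1507 at Pdi and 8938 and 2005 at Sec61alpha.

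**Figure D3:**
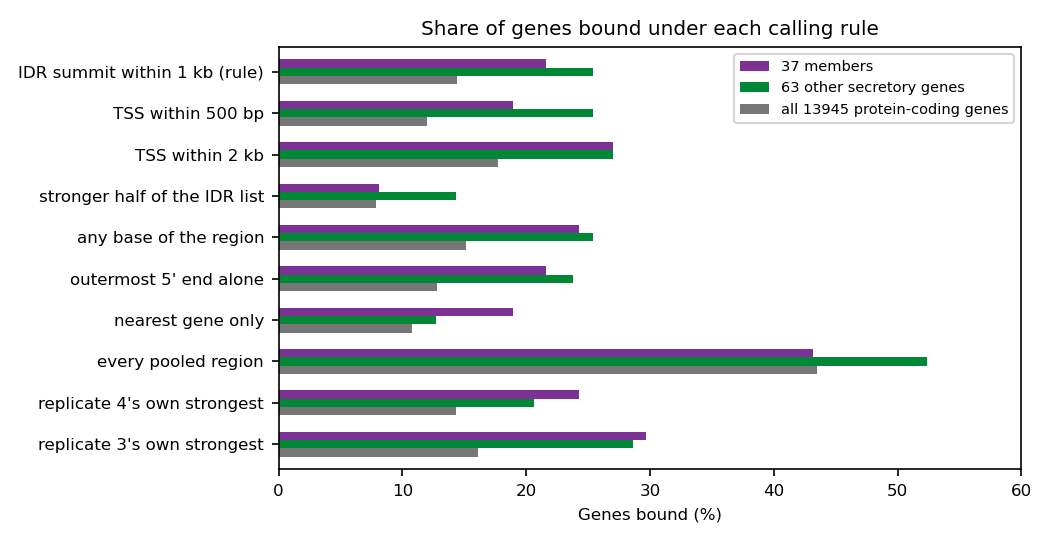
Share of genes bound (horizontal, %) under each calling rule (rows) for the 37 secretory pathway genes (purple), the 63 other genes of the route (green) and all 13945 protein-coding genes (grey). The purple bar is longer than the grey one under every rule shown except with every pooled region (43.2% against 43.5%), and the 2 are close for the stronger IDR peaks (8.11% against 7.83%). All rules use the same genes and lists from the same samples, so the rows do not count as independent results.

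Among the 63 other genes of the route, 16 were bound, most of them by a peak that another gene shared. The strongest peak at any of them was at Stt3A, a catalytic subunit of the oligosaccharyltransferase that attaches N-glycans (X, 21054218 to 21054465). It had a pooled signal of 563.9 at rank 62, 219.4 at rank 69 in replicate 3 and 345.8 at rank 59 in replicate 4, but its summit was nearer to a TSS of bves (201 bp) than to that of Stt3A (408 bp). By group, 3 of 6 N-glycosylation genes were bound (Stt3A, Stt3B and Dad1), 3 of 8 ER folding genes (Cnx99A, ERp60 and prtp), 5 of 11 SNAREs and tethers (Syx5, membrin, Slh, p115 and Gmap) and none of 5 COPI and ARF genes. The others were the signal peptidase subunit Spase22-23, the ATF4 homolog crc, the p24 gene loj, the COG subunit Cog5 (annotated as fws) and Tango11. Their own TSS was the nearest to the summit at 8 of 16, and 14 of 16 (87.5%) shared it with another gene within 1 kb. The secretory pathway genes had 7 of 8 and 5 of 8 in these measures; the difference was not tested.

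At the summits, both strands of the complete 101 bp windows were searched for motifs, including the parts that are not printed above. CANNTG was present in 2 of the 8 windows (25.0%), those of Srp72 and zetaCOP, against 35.4% of all 3292 IDR windows. In windows of 201 bp it was present in 5 of 8 (62.5%), against 60.8%, so its share was no longer below that of all windows. ACGT was present in 3 (37.5%, against 17.6%), those of CrebA, Sec23 and zetaCOP. TGACGT, a form that holds ACGT and is the core of CREB-type sites, was present in 1, zetaCOP, against 66 of the 3292. CGATA, the core bound by the boundary factor BEAF-32, was present in 4, against 16.2%, GAGAG in 1, CrebA (12.5%, against 15.2%), and TGTTTA, a forkhead core, in 2 (25.0%, against 14.6%). None of the 8 windows held CCACG, which is found in ER stress elements. The E-box form CATATG was in none either, nor was the form CAGCTG, nor the form CACGTG, which also holds ACGT. TATCGATA, which holds CGATA, was likewise in none. The median GC content of the 8 windows was 31.2%, against 33.7% of all IDR windows. A match is a run of letters and does not show a bound site, and with 8 windows 1 gene is 12.5 percentage points.

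The distances from summit to motif differed widely between the genes. At zetaCOP the summit lay 2 bp from CANNTG and 14 bp from TGACGT. At CrebA it lay 62 bp from CANNTG, 29 bp from ACGT and 89 bp from TGACGT, and at Hsc70-3 90 bp from CANNTG and 63 bp from TGACGT. At Srp72 the nearest CANNTG was 40 bp away, at Sec13 90 bp, at KdelR 137 bp, at Xbp1 151 bp and at Sec23 253 bp. The Sec23 summit lay 32 bp from ACGT.

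In the promoters, taken from 250 bp before to 50 bp after the annotated 5′ end, the letters of bZIP sites were found in a larger share of the secretory pathway genes than of all genes. This is a property of the reference genome and not of the ChIP-seq lists. TGACGT was present in 13 of 37 promoters (35.1%), against 6.65% of all promoters, 7.71% of those of all bound genes and 22.2% (14 of 63) of the other genes of the route. By step these were both regulators, Sec61beta and SrpRalpha, Hsc70-3 and Pdi, Sec24AB and Sec24CD, alphaCOP, gammaCOP and zetaCOP, and p24-1 and KdelR. It was present in 5 of the 8 bound genes (62.5%) and in 8 of the 29 not bound (27.6%). With promoters from 500 bp before to 100 bp after the 5′ end these shares were 62.5% and 41.4%. The difference was not tested. ACGT was present in 26 of 37 (70.3%, against 48.4%) and CCACG, which can overlap ACGT, in 17 (45.9%, against 23.0%). Of the bound genes 1 of 8 held CCACG, KdelR, and of those not bound 16 of 29 (55.2%).

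The stretches of 20 bases around TGACGT (capitals) are shown, because this core was found in a larger share of these promoters than of all promoters. Each is read on the strand that holds TGACGT, from the RefSeq Release 6 (dm6) genome. Of the 18 matches 14 are printed, those of Xbp1, Sec61beta and Sec24AB being left out. The position is that of the core's first base on the gene's strand, counted from 0 at the annotated 5′ end.
CrebA at -41 (chr3L:15535347-15535366, minus strand): cctctgcTGACGTcgctgcc
CrebA at -26 (chr3L:15535362-15535381, plus strand): agaggacTGACGTttcgatt
Hsc70-3 at -56 (chrX:11807161-11807180, plus strand): ctaccacTGACGTgtcgatg
zetaCOP at -179 (chr3L:16673722-16673741, plus strand): gcttgctTGACGTtggccgt
zetaCOP at 27 (chr3L:16673516-16673535, minus strand): actaaagTGACGTgtaagac
KdelR at 19 (chr2L:10426899-10426918, minus strand): taaacaaTGACGTggctgat
SrpRalpha at 15 (chrX:11129060-11129079, minus strand): aggcaagTGACGTggaacgt
Pdi at -178 (chr3L:15143006-15143025, minus strand): aagagaaTGACGTaagttat
Sec24CD at -176 (chr2L:2237008-2237027, minus strand): tatttaaTGACGTcactgca
Sec24CD at -174 (chr2L:2237006-2237025, plus strand): aatgcagTGACGTcattaaa
Sec24CD at 31 (chr2L:2236801-2236820, minus strand): agggaacTGACGTggaagtt
alphaCOP at 5 (chr3L:1645182-1645201, minus strand): agataatTGACGTgtcacaa
gammaCOP at 26 (chr3R:31572162-31572181, plus strand): cgctgagTGACGTgtaagcg
p24-1 at -4 (chrX:11852522-11852541, plus strand): ggggttcTGACGTgtcaaca
The base after the core was G at 12 of the 18 matches in the 37 promoters (66.7%), against 203 of 1036 in all promoters (19.6%) and 8 of 15 in the other genes of the route (53.3%). Promoters with TGACGTG made 29.7% of the 37 (11) and 1.42% of all. This base was looked at after the matches had been seen. A palindromic match, TGACGTCA, as upstream of Sec24CD, was counted on both strands. At the bound genes the distance of these cores from the summit ranged widely. It was 14 bp and 187 bp at zetaCOP, 89 bp and 104 bp at CrebA, 205 bp at Xbp1, 578 bp at KdelR and 661 bp at Hsc70-3, where another TGACGT outside this promoter window lay 63 bp from the summit. Of the genes not bound that hold the core, Sec61beta, alphaCOP and gammaCOP had no region of any list within 1 kb.

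E-boxes were found in a smaller share of these promoters than of all promoters. CANNTG was present in 22 of 37 (59.5%), against 77.2% of all promoters and 77.8% of those of the other genes of the route. It was in 6 of the 8 bound genes (75.0%) and 16 of the 29 not bound (55.2%). With promoters from 500 bp before to 100 bp after the 5′ end the gap was smaller, with 33 of 37 (89.2%) against 94.2%. CGATA was present in 26 (70.3%, against 47.4%), TATCGATA in 6 (16.2%, against 9.36%), GAGAG in 6 (16.2%, against 29.7%) and TGTTTA in 13 (35.1%, against 32.5%).

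**Figure D4:**
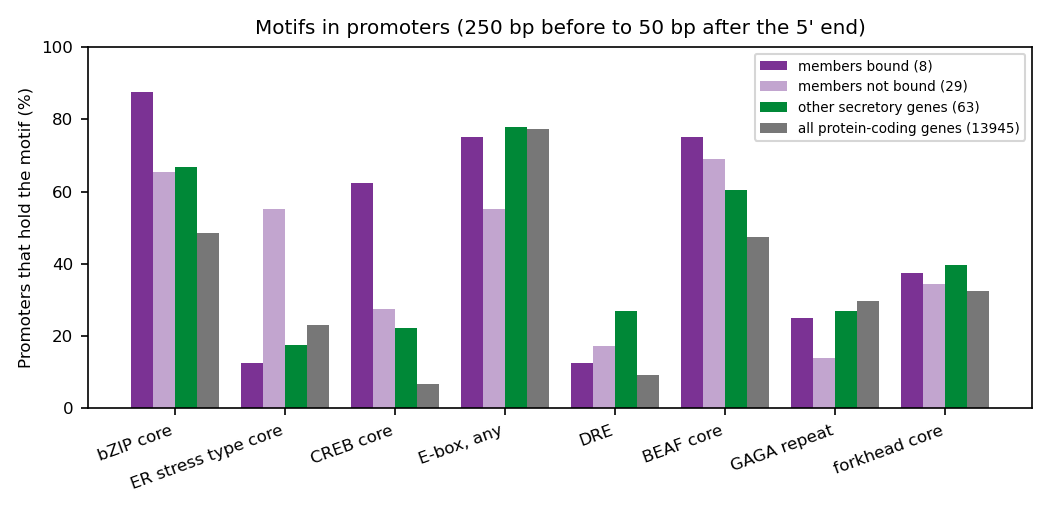
Share of promoters (vertical, %) that hold each motif, for the 8 bound and 29 not bound secretory pathway genes, the 63 other genes of the route and all 13945 protein-coding genes. The names stand for ACGT (bZIP core), CCACG (ER stress type core), TGACGT (CREB core), CANNTG (E-box), TATCGATA (DRE), CGATA (BEAF core), GAGAG (GAGA repeat) and TGTTTA (forkhead core). The CREB core is at 62.5% of bound and 27.6% of not bound secretory pathway genes and 6.65% of all genes.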

How the data were processed

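ChIP-seq of Sage-GFP was measured in 2 samples, biological replicates 3 and 4 per the labels, which do not say whether the larvae came from separate cultures. The DNA was sheared with a Bioruptor sonicator to a size range of 200 to 800, per the labels. The deposited text says that each replicate's list of peaks and background was derived from its alignment and a control alignment, that a pooled list was made likewise from both, and that the IDR list was derived from these 3. The signal of each region and its −log10 q-value are the authors' deposited values, used as such. Their scaling, the aligner and the peak caller were not given in the sources used here. Sequencing depth is unknown, so no value carries a counting error. The replicates shared 0 regions of identical position. The lists on build dm3 were not used.

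Positions count from 1 on dm6. The annotation was Ensembl release 115 (BDGP 6), and sequence was taken from the RefSeq Release 6 genome. A gene counted as bound if any of its TSSs had an IDR summit within 1 kb, and overlaps needed 1 bp. Of 64 other names listed for the route, 58 matched by symbol, 5 by a RefSeq synonym and 1, Sec62, not at all, leaving 63 genes. Named were all 37 genes, the bound ones among the 63, and neighbours with a nearer TSS or one within 1 kb. The genes and lists were chosen with earlier results of these data known. With 1 group of 2 samples no test between groups was possible, so counts stand beside the share of all genes by the same rule. The alternatives were 9 other calling rules and wider motif windows. The rules were tested on simulated data. Python 3.11.15, numpy 2.4.6 and matplotlib 3.10.9 were used.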

Additional observations from a re-analysis of the deposited data

How the results depend on the processing

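The count of bound secretory pathway genes, 8 of 37, fell to 3 with the 1656 strongest IDR peaks and rose to 16 with every pooled region. For the 63 other genes of the route, 16 bound became 9, 33 and, when a summit counted for the nearest gene alone, 8. The other calling rules kept both counts within 1.5 times. With a single replicate's list in place of the pooled one, the counts were 9 to 11 and 13 to 18. Of 54 counts by step, 18 moved by more than 1.5 times; each step had 1 or 2 bound genes by the main rule. Where a bound gene kept its call, its rank moved by more than 1.5 times at CrebA (from 2264 to 787 within 2 kb and 1014 without replicate 3), Sec13 (from 1055 to 2555 without replicate 3 and 613 without replicate 4) and Sec23 (from 2157 to 801 without replicate 4). With summit windows of 201 bp, ACGT and CANNTG were each in 5 of 8 (62.5%, against 33.6% and 60.8% of all IDR windows) and TGACGT in 3 (37.5%, against 4.40%). With promoters from 500 bp before to 100 bp after the 5′ end, TGACGT was in 17 of 37 (45.9%), against 12.4% of all genes and 14.7% of all bound genes. Of the 37, these were 5 of the 8 bound genes and 12 of the 29 not bound (41.4%). The IDR list is the pooled list to rank 3312, so its threshold sets which genes are called, and Pdi, at rank 3330, lay next to it. The authors derived the lists with a control alignment. As the depth is unknown and the control library was not analysed here, their signals could not be checked against background.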
